A study of Rattus norvegicus with 16 samples.

Results

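Matrix metalloproteinases and their tissue inhibitors were followed in rat brain after stroke: the enzymes Mmp2, Mmp3, Mmp9, Mmp12, Mmp14 and Mmp19 and the inhibitors Timp1, Timp2, Timp3 and Timp4. A probe was assigned to a gene when the accession printed on the array for it belongs to that gene, and all 10 genes had a probe that could be tested, among 20471 features tested. The study placed total RNA of 16 brain samples from rats 8 weeks old on 16 single-colour (Cy3) Agilent arrays. The control group held 5 samples from rats with no occlusion. The saline group held 5 samples from rats with occlusion of the middle cerebral artery (MCAo), a model of ischaemic stroke, treated with saline. The hUMSC group held 6 samples from rats with MCAo that received 1000000 human umbilical mesenchymal stem cells intravenously. Tissue was taken 72 hours after occlusion. The labels name no hemisphere or region, no sex, no time of infusion and no sham-operated group, so that surgery and occlusion cannot be told apart against the controls, and saline and occlusion were given together. Replicates carry the label numbers, 1 to 5 in the control and saline groups and 5 to 10 in the hUMSC group. The labels do not say that each sample is a separate animal beyond its own number, and p-values measure the spread between these samples.

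Matrix metalloproteinases are zinc-dependent proteases that are made as inactive precursors and cut collagens, laminins, fibronectin and other extracellular proteins once activated. The gelatinases Mmp2 and Mmp9 are known in stroke for attacking the basement membrane and the tight junctions of the blood-brain barrier, while later activity of the family is tied to vessel growth and matrix remodelling. The Timp proteins bind the active site of these enzymes and block it, and Timp2 also takes part in the activation of the Mmp2 precursor by Mmp14 at the cell surface.

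A level below is the log2 processed signal of a probe minus the 75th percentile of its array, so that 0 is a bright signal and each unit is a doubling. Levels of different probes are not comparable, and only differences of 1 probe between groups are read. Between 72.3% and 77.6% of probes were well above background on an array, and no spot was saturated. Neuronal genes averaged 3.12 to 3.19 in the controls, 2.62 to 3.14 in the saline group and 2.30 to 2.66 in the hUMSC group over 13 measured of 14 listed, while the labels' RNA protocol describes a kit for blood. All arrays lay on 2 slides that each held all 3 groups, with control and saline replicates 1 to 3 and hUMSC replicates 5 and 6 on slide 1. Saline replicates 1 and 5 stood apart from the other 3 saline arrays. For 8 of the 10 genes both lay below saline replicates 2, 3 and 4, and Timp3 and Timp4 were the exceptions. This order was not counted over all features, so it is not read as a trait of these genes. The comparisons of the 10 genes with the saline group are therefore also given without these 2 arrays. As the arrays were picked by their levels, leaving them out raises the saline mean of those 8 genes by construction. It also moves their hUMSC minus saline difference down. Calls made or lost without these arrays are therefore descriptions. In whole tissue, fewer cells of a type and less RNA per cell cannot be told apart.

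Against the controls, the saline group had higher RNA of Mmp2, Mmp9, Mmp12, Mmp19, Timp1, Timp2 and Timp3. None of the 10 genes was called lower by limma, and Mmp3, Mmp14 and Timp4 did not pass the test. At an unadjusted p under 0.05 there were 9, with Mmp14 above and Timp4 below the controls. No share of all features was counted at an unadjusted p, here or below, so such counts are descriptions. With median scaling Timp4 was also called lower (-0.40, adjusted p = 0.0422). A gene counted as called when limma's adjusted p, corrected by Benjamini-Hochberg over all features, was under 0.05. These 7 of 10 stand against 14.3% of all features called higher (2924, with 2657 lower) and 27.3% called in either direction. There were 9 called without saline replicates 1 and 5, 8 higher with Mmp14 among them and Timp4 lower (-0.45, adjusted p = 0.0332). In that setting 9041 of 20471 features were called, 4049 higher and 4992 lower. Mmp3 and Mmp12 did not clear background in the controls and Mmp19 on only 2 control arrays, so that they could be tested only through the occluded groups, and counts that hold them are descriptions. Of the 7 genes above background on all arrays, 5 were called in the saline group, where 5439 of 18248 such features were called. For 6 of the 10 every saline array lay above every control array, against 9.85% of all features above and 8.55% below. The median log2 change of the 10 genes was 0.94, and that of all features was -0.04.

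The hUMSC group had higher RNA than the controls of all 6 enzymes and of Timp1 and Timp2. Timp4 was lower, and Timp3 was 0.03 above the controls with no call. Of the 7 genes above background on all arrays, 6 were called, and of all such features 11884 of 18248. Of all features 24.7% were called higher and 37.3% lower in this comparison, 62.0% in all, so that a call by itself is common here. The groups did not overlap for 8 of the 10 genes, all of them above the controls, against 19.2% of all features above and 26.9% below. The median change of the 10 genes was 1.49, or 1.38 with genes whose control signal was not above background at their lower bound, and that of all features was -0.13. Both comparisons use the same 5 control arrays.

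Between the occluded groups, Mmp3 and Mmp9 were called higher in the hUMSC group than in the saline group. Of all features 4.86% were called higher (994, with 1630 lower) and 12.8% in either direction. Mmp3 cleared background on 1 saline and 4 hUMSC arrays and was tested only through the group where it is high, so its call is a description. Of the 7 genes above background on all arrays, Mmp9 was the only 1 called. Of all such features 2905 of 18248 were called, so 1 of 7 is near the share of all. The saline and hUMSC arrays overlapped for all 10 genes, where 1.24% of all features lay wholly above and 2.95% wholly below. Without saline replicates 1 and 5 limma called none of the 10 genes and 23 of 20471 features. Of the 10 genes, 2 then had an unadjusted p under 0.05, against 5 with all arrays, with no share of all features counted. The Mmp3 and Mmp9 calls also ended without saline replicate 1 alone, without saline replicate 5 alone and without any of hUMSC replicates 5, 6, 7 and 9. With only the 2 occluded groups fitted, none of the 10 genes and 41 of 20471 features were called.

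**Figure D1:**
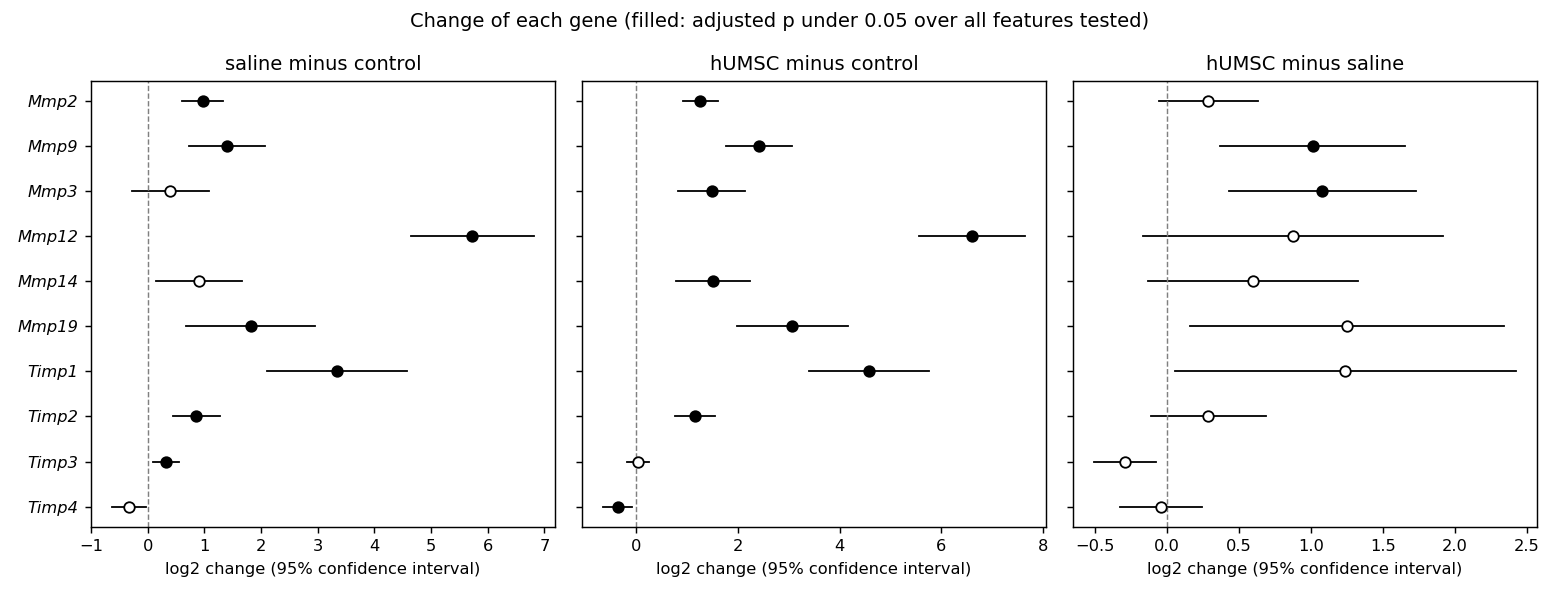
Log2 change of each gene in 3 comparisons, with its 95% confidence interval from limma on the horizontal axis; filled points passed an adjusted p of 0.05 over all 20471 features. The change of Mmp12 reached 5.73 in the saline and 6.60 in the hUMSC group, and in the panel of hUMSC minus saline only Mmp3 and Mmp9 are filled.

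Short sequences upstream of the gene starts were searched for motifs. RefSeq (GRCr8) gave promoter windows of 250 bases before to 50 bases after the start for 6 of the 10 genes: Mmp3, Mmp12 and the 4 inhibitors. The 4 windows below are shown for the 150 bases before the start. Mmp12 and Timp1 had the 2 largest changes, Mmp3 is a neighbour of Mmp12, and Timp3 is shown because it was near the control level in the hUMSC group. Capitals mark TGANTCA, the AP-1 consensus, its variant TGAGTAA, the TATA box TATAAA and the GC box GGGCGG, each searched on both strands.
Mmp12 promoter (chr8:12866502-12866651, plus strand): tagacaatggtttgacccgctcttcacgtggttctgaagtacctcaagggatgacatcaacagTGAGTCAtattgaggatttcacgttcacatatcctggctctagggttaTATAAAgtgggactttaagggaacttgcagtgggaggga
Mmp3 promoter (chr8:12925131-12925280, plus strand): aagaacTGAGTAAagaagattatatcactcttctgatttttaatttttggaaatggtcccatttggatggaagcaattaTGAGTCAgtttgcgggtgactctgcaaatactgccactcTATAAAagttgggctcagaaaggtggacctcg
Timp1 promoter (chrX:3771123-3771272, minus strand): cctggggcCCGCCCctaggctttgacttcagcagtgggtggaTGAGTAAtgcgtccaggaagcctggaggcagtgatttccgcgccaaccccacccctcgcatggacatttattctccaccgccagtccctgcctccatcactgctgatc
Timp3 promoter (chr7:19459559-19459708, minus strand): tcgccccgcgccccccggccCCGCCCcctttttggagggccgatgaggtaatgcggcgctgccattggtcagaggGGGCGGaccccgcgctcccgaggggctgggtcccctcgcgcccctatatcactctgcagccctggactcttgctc
TGANTCA was present in the windows of Mmp12 and Mmp3, beginning 87 and 71 bases before the start, and in none of the 4 inhibitor windows. Of 33469 rat promoter windows of the same length, 7.33% hold it. TATAAA was found in the same 2 genes, 39 bases before the start in Mmp12 and 32 bases before it in Mmp3, against 14.2% of all windows. TGAGTAA, a motif added after the windows had been seen, lay 108 bases before the Timp1 start and 144 bases before that of Mmp3, against 2.90% of all windows. GGGCGG was found in Timp1, Timp2 and Timp3, with 3 copies in Timp3, and 33.1% of all windows hold it. TTCNNNGAA, the core of a STAT site, was in none of the 6 windows and in 8.87% of all. AGGAAG, an ETS-type core, was in Mmp3, Timp1 and Timp4 and in 34.5% of all. These are letter matches in a short window and no measurement of binding.

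The gelatinase Mmp2 rose in both occluded groups. Its level was -0.25, -0.40, -0.22, -0.81 and -0.47 in control replicates 1 to 5. In saline replicates 1 to 5 it was 0.57, 0.93, 0.65, 0.69 and -0.14, and in the hUMSC group it ran from 0.62 through a median of 0.83 to 1.04. Every occluded array lay above every control array, and saline replicate 5 came closest to the controls. The mean went from -0.43 ± 0.24 (SD, n = 5) to 0.54 ± 0.40 (SD, n = 5) and 0.82 ± 0.17 (SD, n = 6). The saline change was 0.97 ± 0.17 (SE, adjusted p = 0.00173), a 1.96-fold rise, and the hUMSC change was 1.26 ± 0.16 (adjusted p = 2.45e-05), a 2.39-fold rise. The hUMSC group lay 0.28 ± 0.16 above the saline group (adjusted p = 0.205), with a 95% interval from -0.06 to 0.63. Leaving out saline replicates 1 and 5 gave a saline change of 1.19. The gap between the occluded groups was then 0.07, and with all arrays and slide as a block it was 0.38 (adjusted p = 0.0386). Within slide 1 Mmp2 was 1.01 and 1.31 above the controls in the saline and hUMSC groups, and within slide 2 0.92 and 1.37. A further Mmp2 probe gave changes of 0.98 and 1.29.

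Mmp9, the gelatinase that neutrophils and activated endothelium release, had levels of -4.69, -4.73, -4.63, -4.33 and -4.51 in the controls. The saline arrays fell into separate levels: -4.06 and -4.19 in replicates 1 and 5, and -2.65, -2.44 and -2.56 in replicates 2, 3 and 4. The hUMSC arrays ran from -2.52 through a median of -2.16 to -1.81. All occluded arrays were above all controls, and the lowest hUMSC array was below the highest saline array. The saline change was 1.40 ± 0.32 (SE, adjusted p = 0.00667, 2.63-fold) and the hUMSC change 2.41 ± 0.30 (adjusted p = 2.00e-05, 5.31-fold). Without saline replicates 1 and 5 the saline change was 2.03. The hUMSC group lay 1.01 ± 0.30 above the saline group (adjusted p = 0.0431), a 2.02-fold difference. The SE takes 1 spread for all 3 groups, while the SD was 0.16 in the controls, 0.87 in the saline and 0.34 in the hUMSC group. With only the 2 occluded groups fitted the difference was not called. Without saline replicates 1 and 5 that difference was 0.38 (adjusted p = 0.352), without replicate 1 alone 0.79 (0.129) and without replicate 5 alone 0.76 (0.119). Leaving out hUMSC replicates 5, 6, 7, 9 or 10 singly gave differences of 0.94 to 1.08 with adjusted p from 0.0545 to 0.0891. Within slide 1 and slide 2 the hUMSC arrays were 0.84 and 1.23 above the saline arrays, and 2.47 and 2.27 above the controls. The saline arrays were 1.63 and 1.04 above the controls on the same slides. Background correction by normexp in place of the scanner's gave 1.00, 0.74 and 1.74 for saline against control, hUMSC against saline and hUMSC against control.

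The stromelysin Mmp3, which cleaves proteoglycans and laminin and activates other precursors of the family, was dim. It cleared background on none of the controls, on saline replicate 4 and on hUMSC replicates 6, 7, 8 and 9. That is the least number of arrays with which a feature entered the test, so Mmp3 was tested through the group where it is high. Its levels were -8.80, -8.27, -7.35, -8.06 and -7.94 in the controls and -8.50, -7.91, -7.27, -6.62 and -8.12 in the saline group. The hUMSC arrays ran from -7.06 through -6.61 to -6.28, all above the controls and overlapping the saline arrays. The saline change was 0.40 ± 0.32 (SE, adjusted p = 0.368), or 0.82 (adjusted p = 0.0516) without saline replicates 1 and 5. The hUMSC change was 1.48 ± 0.31 (adjusted p = 0.000758). As the control signal was not above background, the difference is given as at least 2.03-fold with the scanner's background correction. This bound, like those of other genes below, sets the mean of the higher group against the lowest signal well above background on the control arrays. It holds only under that correction, and hUMSC replicates 5 and 10 enter the mean without being well above background. The fitted difference of the hUMSC from the saline group was 1.08 ± 0.31 (adjusted p = 0.0372), with 4 of 5 saline arrays not above background. That became 0.66 (adjusted p = 0.380) without saline replicates 1 and 5, 0.88 (0.117) without replicate 1 and 0.97 (0.106) without replicate 5. It was 1.01 to 1.11 with adjusted p from 0.0583 to 0.0754 without hUMSC replicate 5, 6, 7 or 9. Within slide 1 and slide 2 it was 1.36 and 0.73. With normexp the same difference was 0.09 (adjusted p = 0.422), and that of hUMSC against control was 0.22, a smaller rise than the bound above.

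The macrophage elastase Mmp12, which degrades elastin and is made chiefly by macrophages, had the largest fitted change of the 10 genes with the scanner's background correction. In the controls its level was -9.17, -8.78, -8.30, -8.54 and -8.61, with no array well above background. In saline replicates 1 to 5 it was -4.19, -1.59, -1.39, -3.03 and -4.56, and in the hUMSC group it ran from -2.66 through -2.08 to -1.54, well above background on all 11 occluded arrays. The lowest occluded array was far above the highest control. The gap between saline replicate 3 and saline replicate 5 was nevertheless wider than that between the 2 occluded group means. Means were -8.68 ± 0.33 (SD, n = 5) in the controls, -2.95 ± 1.45 (SD, n = 5) in the saline group and -2.08 ± 0.44 (SD, n = 6) in the hUMSC group. With the scanner's background correction, Mmp12 was at least 25.7-fold higher in the saline group (5.73 ± 0.51 in log2, SE, adjusted p = 5.82e-05). In the hUMSC group it was at least 47.0-fold higher (6.60 ± 0.49, adjusted p = 1.97e-06). Fitted values and bounds both depend on that correction. Normexp gave log2 changes of 2.48 and 3.03, smaller rises than either bound, and below the 3.30 and 4.52 of Timp1 under normexp. The hUMSC group was 0.87 ± 0.49 above the saline group (adjusted p = 0.199), with an interval from -0.17 to 1.92, and -0.08 without saline replicates 1 and 5. Without those replicates the saline change from control was 6.68. On slide 1 the saline and hUMSC arrays were 6.36 and 6.70 above the controls, and on slide 2 4.78 and 6.49.

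Mmp14, the membrane-type enzyme that activates the Mmp2 precursor and cuts fibrillar collagen, was at -0.52, -0.80, -1.13, -1.20 and -0.77 in the controls. In the saline group it was -0.47, 0.67, 0.65, 0.62 and -1.37, with replicate 5 below every control array. The hUMSC arrays ran from -0.03 through 0.68 to 1.30, all above the controls. The saline change of 0.90 ± 0.36 (SE) did not pass the test (adjusted p = 0.0716). It did without saline replicate 5 (1.25, adjusted p = 0.00354) and without replicates 1 and 5 (1.53, adjusted p = 0.000284). The hUMSC change was 1.50 ± 0.34 (adjusted p = 0.00156), a 2.82-fold rise. The hUMSC group was 0.59 ± 0.34 above the saline group (adjusted p = 0.209, interval -0.13 to 1.32), and -0.03 without saline replicates 1 and 5. Within slide 1 the saline and hUMSC changes were 1.10 and 1.83, and within slide 2 they were 0.61 and 1.40, the last with an adjusted p of 0.0768.

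Mmp19, a secreted enzyme with basement membrane substrates, was at -6.83, -5.79, -7.44, -7.08 and -6.80 in the controls, well above background on 2 of the 5. In the saline group it was -5.90, -3.91, -4.03, -3.97 and -7.05, so that replicates 2 to 4 stood above all controls and replicates 1 and 5 among them. The hUMSC arrays lay between -4.36 and -3.40 with a median of -3.48, above every control. The saline change was 1.82 ± 0.53 (SE, adjusted p = 0.0229) and the hUMSC change 3.06 ± 0.51 (adjusted p = 0.000151, 8.36-fold). The saline call ended, with adjusted p from 0.0564 to 0.0670, without control replicate 3 or saline replicate 2, 3 or 4, while the change without saline replicates 1 and 5 was 2.82. The hUMSC group was 1.25 ± 0.51 above the saline group (adjusted p = 0.0976), or 0.24 without those 2 arrays. On slide 1 the saline and hUMSC changes were 2.08 and 3.28, and on slide 2 1.43 and 3.06. Normexp gave 0.71 and 1.24.

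**Figure D2:**
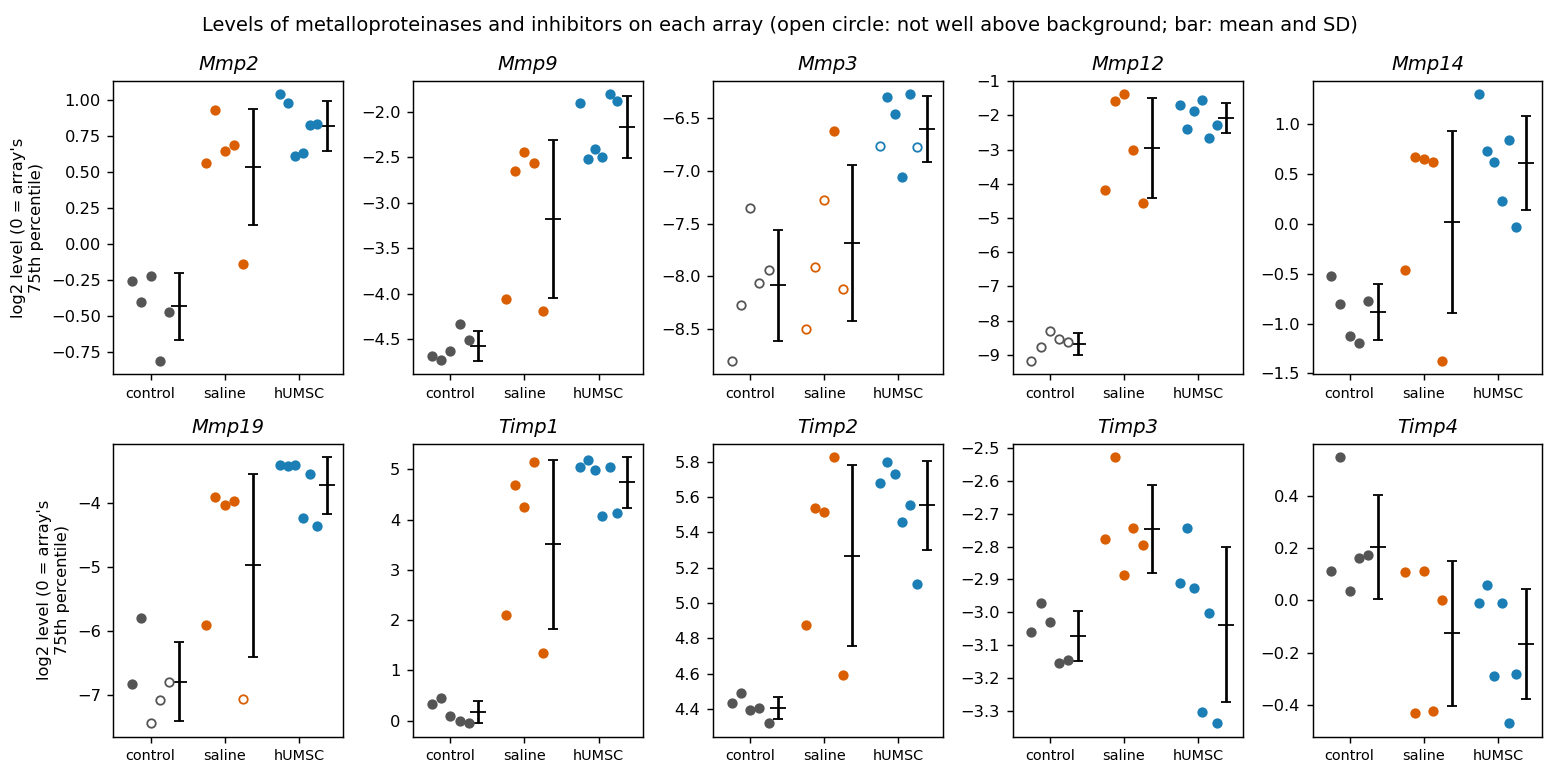
Level of each of the 10 genes on each array, as log2 signal minus the array's 75th percentile, by group; each panel has its own vertical axis, the bar is the mean with SD, and open circles mark arrays where the probe was not well above background. All controls are open for Mmp12 (-9.17 to -8.30) and Mmp3, and the saline points of Timp1 spread from 1.35 to 5.15.

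The inhibitor Timp1, an inducible gene whose protein binds the Mmp9 precursor, had the next largest change after Mmp12 with the scanner's background correction and a larger one than Mmp12 with normexp (3.30 and 4.52). Its level was 0.34, 0.46, 0.09, -0.01 and -0.04 in the controls and 2.10, 4.69, 4.24, 5.15 and 1.35 in the saline group. In the hUMSC group it ran from 4.08 through 5.02 to 5.18. All occluded arrays were above all controls, and saline replicates 1 and 5 lay below every hUMSC array. The mean rose from 0.17 ± 0.22 (SD, n = 5) to 3.51 ± 1.68 (SD, n = 5) and 4.74 ± 0.50 (SD, n = 6). It rose by 3.34 ± 0.58 (SE, adjusted p = 0.00173, 10.1-fold) in the saline group and by 4.58 ± 0.56 (adjusted p = 1.65e-05, 23.9-fold) in the hUMSC group. The difference between the occluded groups was 1.24 ± 0.56 (adjusted p = 0.122, interval 0.05 to 2.42). It was 0.05 without saline replicates 1 and 5, where the saline change was 4.53. Within slide 1 the saline and hUMSC changes were 3.39 and 4.82, and within slide 2 3.27 and 4.59.

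Timp2, the constitutive inhibitor that bridges Mmp14 and the Mmp2 precursor, was at 4.43, 4.49, 4.39, 4.40 and 4.32 in the controls. In the saline group it was 4.87, 5.54, 5.52, 5.83 and 4.59, and in the hUMSC group it ran from 5.11 through 5.62 to 5.80. No occluded array reached down to the controls, whose SD was 0.06. Against the controls the saline change was 0.86 ± 0.20 (SE, adjusted p = 0.00680, 1.82-fold) and the hUMSC change 1.15 ± 0.19 (adjusted p = 0.000128, 2.21-fold). The hUMSC group lay 0.29 ± 0.19 above the saline group (adjusted p = 0.266, interval -0.11 to 0.68), and -0.07 without saline replicates 1 and 5, where the saline change was 1.22. On slide 1 the saline and hUMSC changes were 0.87 and 1.30, and on slide 2 0.85 and 1.10.

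Timp3, the inhibitor that is held in the matrix and also blocks Adam17, followed another order. Its level was -3.06, -2.97, -3.03, -3.15 and -3.14 in the controls and -2.78, -2.53, -2.89, -2.74 and -2.80 in the saline group, so that all saline arrays were above all controls. The hUMSC arrays ran from -3.34 through -2.96 to -2.74 and spanned the controls. Against the controls the saline group was 0.33 ± 0.11 (SE, adjusted p = 0.0347, 1.25-fold) higher. With median scaling it was 0.26 (adjusted p = 0.0697), and the call was lost in 11 of 25 alternative settings, leaving out any of control replicates 1, 3, 4 and 5 among them. It was 0.35 (adjusted p = 0.0400) without saline replicates 1 and 5. The hUMSC group was 0.03 ± 0.10 from the controls (adjusted p = 0.783), and -0.01 with median scaling. It was -0.29 ± 0.10 against the saline group (adjusted p = 0.0642), with an interval from -0.51 to -0.08. That difference was -0.32 (adjusted p = 0.300) without saline replicates 1 and 5, -0.10 within slide 1 and -0.37 within slide 2. Saline replicates 1 and 5 did not stand apart here.

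Timp4, an inhibitor abundant in brain and heart, was the only gene of the 10 called lower. Its level was 0.11, 0.55, 0.03, 0.16 and 0.17 in the controls, 0.11, -0.43, 0.11, -0.42 and 0.00 in the saline group, and from -0.47 through -0.15 to 0.06 in the hUMSC group. The groups overlapped, and control replicate 2 stood above the rest. The saline change was -0.33 ± 0.14 (SE, adjusted p = 0.0888) and the hUMSC change -0.37 ± 0.13 (adjusted p = 0.0249). The saline change was called without saline replicates 1 and 5 (-0.45, adjusted p = 0.0332), with array weights (-0.37, adjusted p = 0.0416) and with median scaling (-0.40, adjusted p = 0.0422). The hUMSC change was -0.29 (adjusted p = 0.0757) without control replicate 2 and -0.31 (adjusted p = 0.0567) without hUMSC replicate 9. Within slide 1 and slide 2 it was -0.21 and -0.43, neither called. The occluded groups differed by -0.04 ± 0.13 (adjusted p = 0.832, interval -0.33 to 0.24). A further Timp4 probe gave -0.31 and -0.41 against the controls.

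**Figure D3:**
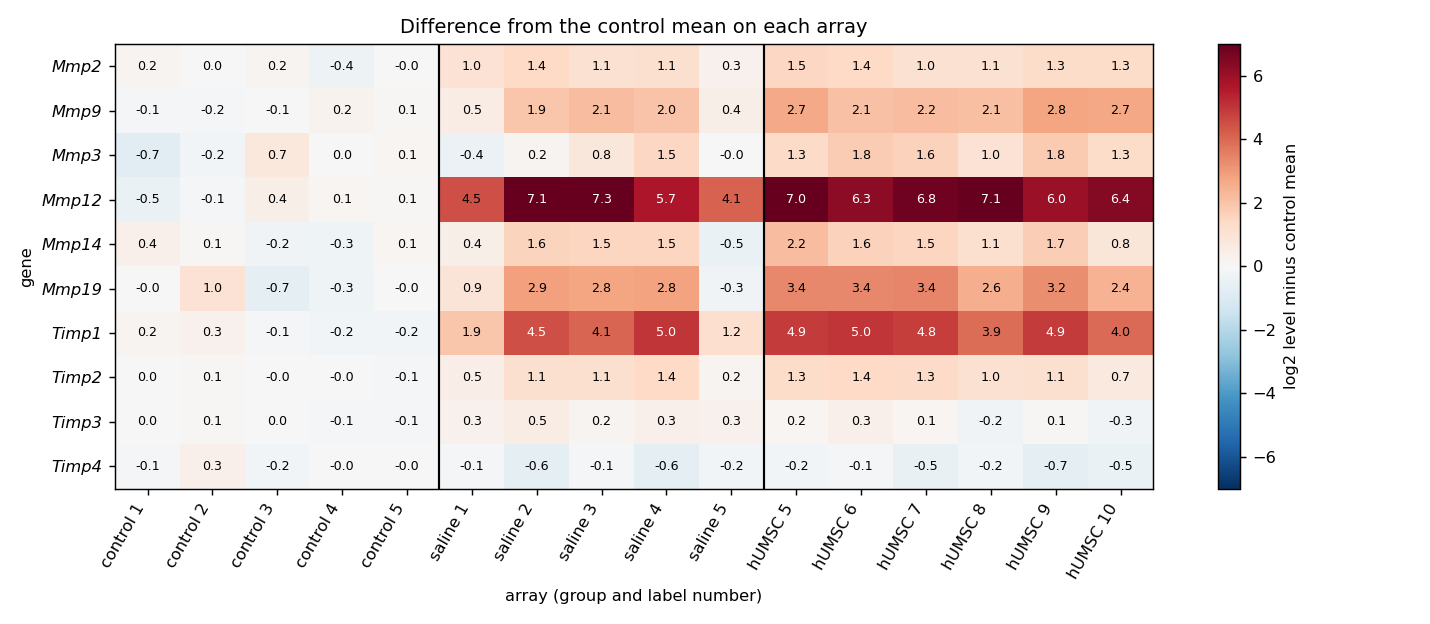
Log2 difference of each gene (rows) from its control mean on each array (columns), with the value printed in each cell and the colour scale running from -7 to 7. Saline replicates 1 and 5 are paler than saline replicates 2 to 4 for Mmp9, Mmp12, Timp1 and Timp2, while the Timp3 and Timp4 rows stay near 0 on all arrays.

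Enzyme and inhibitor were then compared on the same array. The difference of their levels has no meaning by itself, but its shift between groups is the enzyme's change minus the inhibitor's. An exact permutation test over arrays, 2-sided, was applied to that shift, and p was adjusted by Benjamini-Hochberg over 3 pairs and 3 comparisons. Mmp9 minus Timp1 shifted by -1.94 in the saline group (exact permutation p = 0.00794, the smallest that 5 against 5 arrays can give, adjusted p = 0.0357). In the hUMSC group it shifted by -2.17 (exact permutation p = 0.00216, the smallest that 6 against 5 can give, adjusted p = 0.0195). On every occluded array Timp1 had thus gained more over its control mean than Mmp9. The shift between the occluded groups was -0.22 (exact permutation test, adjusted p = 0.807), and 0.33 without saline replicates 1 and 5. Without those arrays the saline shift was -2.50 with an adjusted p of 0.0804, where 3 saline arrays limit the exact permutation test. Within slide 1 the shifts from control were -1.75 and -2.34, and within slide 2 -2.23 and -2.32, with too few arrays per slide to pass. With normexp background correction the shifts were -2.30 and -2.79.

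The other pairs had smaller fitted shifts from control, and none of their shifts passed the test. The pairs were not tested against each other. Mmp2 minus Timp2 shifted by 0.11 in the saline group and 0.11 in the hUMSC group against the controls (adjusted p = 0.807 for both, exact permutation test). Mmp14 minus Timp2 shifted by 0.04 in the saline group (adjusted p = 0.991) and 0.35 in the hUMSC group (adjusted p = 0.286, exact permutation test). Between the occluded groups the shifts were 0.00 for Mmp2 and 0.31 for Mmp14 (adjusted p = 0.996 and 0.545, exact permutation test). A p that misses the threshold does not show equal change. The Mmp2 minus Timp2 differences spanned -5.22 to -4.62 in the controls, -5.14 to -4.31 in the saline group and -5.11 to -4.27 in the hUMSC group.

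**Figure D4:**
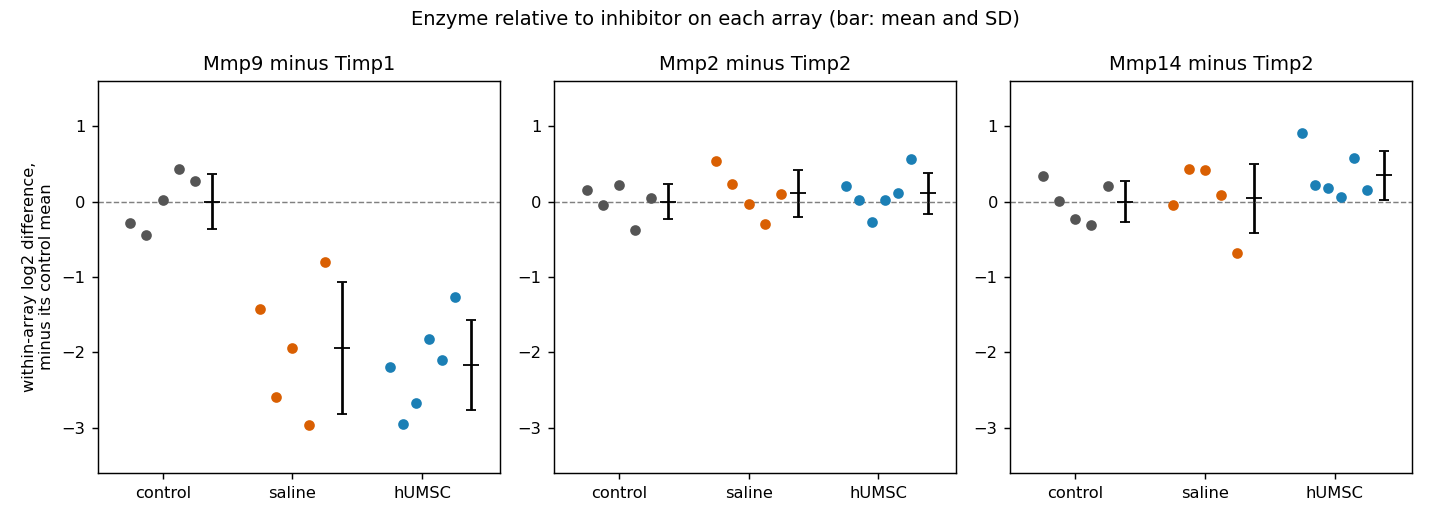
Within-array log2 difference of enzyme minus inhibitor, less its control mean, for 3 pairs by group; points are arrays, the bar is the mean with SD, and all panels share 1 vertical axis. Mmp9 minus Timp1 shifted by -1.94 in the saline and -2.17 in the hUMSC group, while Mmp2 minus Timp2 shifted by 0.11 in each.

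Timp1, Timp4 and Timp3 each lie inside a synapsin gene, Syn1, Syn2 and Syn3, by the RefSeq annotation (GRCr8), with Timp1 and Timp4 on the opposite strand to their hosts. Synapsins are neuronal proteins of synaptic vesicles, and their probes were added to the account after values had been seen. Syn1 fell where Timp1 rose, by 0.59 ± 0.14 (SE, adjusted p = 0.00785) in the saline group and by 0.87 ± 0.13 (adjusted p = 7.31e-05) in the hUMSC group. Its levels ran from 0.93 to 1.10 in the controls, from 0.08 to 0.77 in the saline group and from -0.08 to 0.40 in the hUMSC group, with no overlap between controls and occluded arrays. Syn2 was -0.11 ± 0.11 (adjusted p = 0.494) from control in the saline group and fell by 0.56 ± 0.11 (adjusted p = 0.000458) in the hUMSC group. Syn3 was -0.30 ± 0.24 (adjusted p = 0.372) from control in the saline group and fell by 0.75 ± 0.23 (adjusted p = 0.0111) in the hUMSC group, beside a Timp3 level within 0.03 of control. Syn1 is also 1 of the 13 neuronal genes measured, of which 4 were lower in the saline and 12 in the hUMSC group against control. Of all features 37.3% were called lower in the hUMSC group. The synapsin falls are therefore not read as particular to genes that contain an inhibitor gene.

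**Figure D5:**
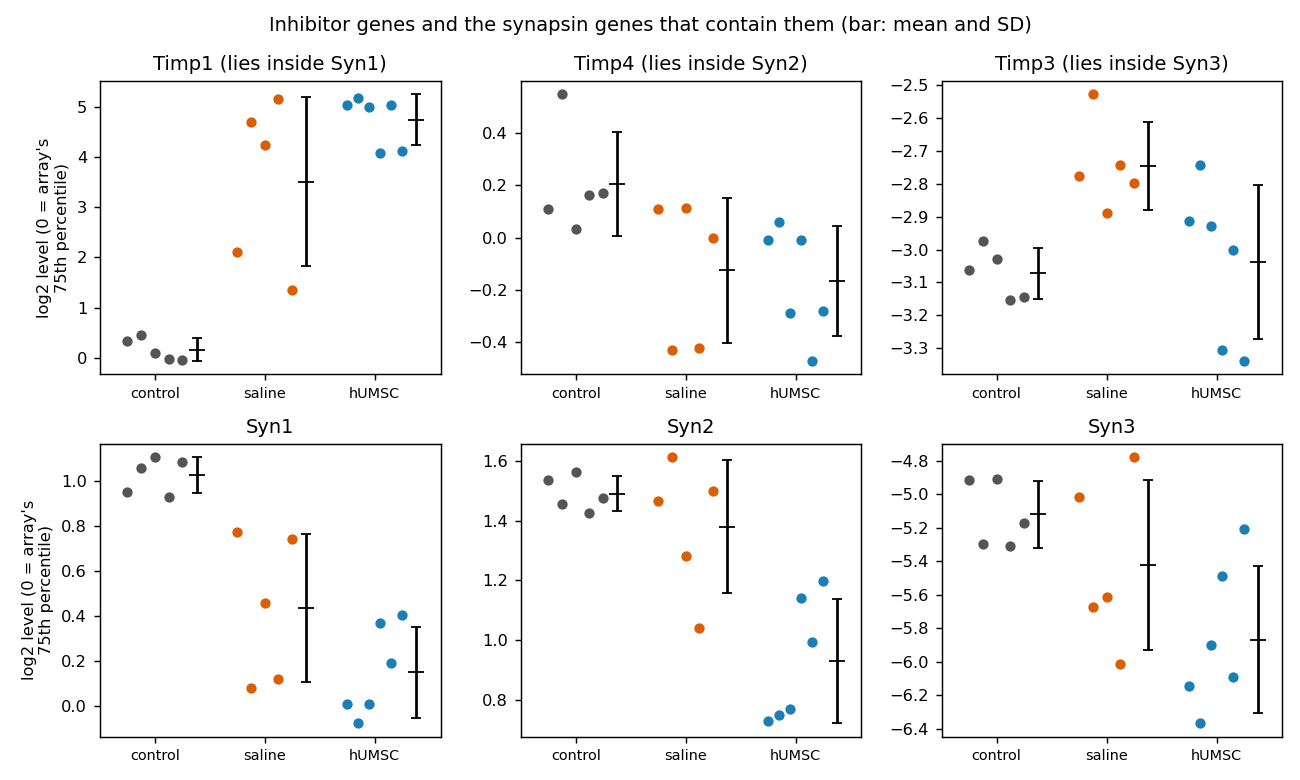
Level of Timp1, Timp4 and Timp3 (top) and of the synapsin gene that contains each (bottom) on every array by group, in log2 units from the array's 75th percentile; the bar is the mean with SD and each panel has its own vertical axis. Timp1 goes from 0.17 in the controls to 4.74 in the hUMSC group and Syn1 from 1.03 to 0.15.

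Several cell type marker lists moved with these genes, and their part in the results was not tested. Beside the marker counts, 14.3% of all features were called higher in saline against control and 27.3% in either direction. In hUMSC against control 24.7% were called higher and 37.3% lower, 62.0% in all. In hUMSC against saline 4.86% were called higher and 12.8% in either direction. A list near these shares is not read as having moved. Markers of phagocytic macrophages, the main source of Mmp12, were higher in the saline group for 12 of 12 genes. Their mean level ran from -1.89 to -1.67 in the controls, from -0.48 to 2.02 in the saline group and from 1.73 to 2.74 in the hUMSC group. Among them Gpnmb rose by 5.15 ± 0.50 in the saline group (SE, adjusted p = 7.58e-05), and Clec7a, which cleared background on none of the controls, was at least 14.6-fold higher. In saline replicates 1 and 5 the macrophage mean was 0.37 and -0.48, and in replicates 2 to 4 it was 1.86 to 2.02, the same division as for Mmp12, Mmp9 and Timp1. This division was not particular to macrophage markers. The reactive astrocyte mean was -1.44 and -1.67 against 0.18 to 0.42, and that of dividing cells -1.33 and -1.92 against 0.10 to 0.31. The neuronal mean divided the other way, 3.08 and 3.14 against 2.62 to 2.78. Homeostatic microglia did not divide so, with replicate 1 at 0.37 and replicate 4 at 0.17. Reactive astrocyte markers were higher for 10 of 12 genes in the saline group and 12 of 12 in the hUMSC group, with means of -2.85 to -2.48, -1.67 to 0.42 and -0.20 to 0.88 in the 3 groups. Markers of dividing cells were higher for 9 of 9 genes in both occluded groups, with means of -3.30 to -3.21, -1.92 to 0.31 and -0.16 to 0.91.

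Neutrophil markers, relevant to Mmp9, were higher for 3 of 7 measured genes in the saline group, 3 of 7 in the hUMSC group against saline and 5 of 7 against control. Their mean ran from -6.02 to -4.68, from -4.48 to -3.03 and from -3.22 to -1.98. Of the defining neutrophil genes, Elane, Cxcr2, Ltf and Ngp were not well above background on enough arrays to be tested, and Mpo and Cd177 had no matched probe. S100a8 and S100a9 were 2.04 ± 0.57 and 2.06 ± 0.60 (SE, adjusted p = 0.0357 and 0.0398) higher in the hUMSC than in the saline group, with overlap. The neutrophil mean was -4.27 and -4.48 in saline replicates 1 and 5 and -3.35 to -3.03 in replicates 2 to 4. Without replicates 1 and 5, 23 of 20471 features were called between the occluded groups, 5 of them higher. With only these 2 groups fitted 41 were called, 8 of them higher. This limit holds for every marker list in that comparison. Pericyte, smooth muscle and fibroblast markers, relevant to Mmp2, Mmp14 and Timp3, were higher for 4 and lower for 1 of 13 genes in the saline group. In the hUMSC group 9 of 13 were higher than in the controls and 3 of 13 higher than in the saline group, Kcnj8 by 1.06 ± 0.14 (adjusted p = 0.00293).

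Neuronal genes were lower for 4 of 13 in the saline group, for 6 of 13 in the hUMSC group against saline and for 12 of 13 against control. Homeostatic microglia markers were higher for 7 of 9 in both occluded groups against the controls. Endothelial markers were higher for 1 and lower for 2 of 12 in the saline group, and higher for 7 of 12 in the hUMSC group. Between the occluded groups 6 of 12 were higher in the hUMSC group and none lower by limma (8 in either direction at an unadjusted p under 0.05), and without saline replicates 1 and 5 none was called (8 at an unadjusted p under 0.05). Resting astrocyte markers were higher for 1 and lower for 3 of 10 in the saline group, and higher for 2 and lower for 5 in the hUMSC group. Oligodendrocyte markers were lower for 4 of 10 and 6 of 10, T and NK cell markers higher for 3 of 13 and 9 of 13, and choroid plexus markers higher for 1 of 8 and 2 of 8 in the saline and hUMSC groups. Choroid plexus markers in the hUMSC group were near the 24.7% of all features called higher. Endothelial markers in the saline group were near the 27.3% called in either direction. None of 5 red blood cell genes was called by limma in any comparison, 0 had an unadjusted p under 0.05, and their mean ranged from -0.32 to 3.01 in the controls, -0.62 to 1.82 in the saline group and -1.12 to 0.35 in the hUMSC group.

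Other matrix metalloproteinases moved in both directions. Of 18 listed, 11 were tested, with 3 higher and 2 lower in the saline group and 5 higher and 2 lower in the hUMSC group against the controls. The median change was 0.27 in each. Of all features 14.3% were called higher and 27.3% in either direction in the saline group, and 24.7% and 62.0% in the hUMSC group. The 7 of 11 called in the hUMSC group were thus near the share of all features. Mmp7 (matrilysin) cleared background on none of the controls and was at least 8.64-fold higher in the hUMSC group (adjusted p = 0.000326), and Mmp11 rose by 1.42 ± 0.28 (SE). Mmp17, a membrane-anchored enzyme, fell by 0.74 ± 0.21 in the saline group and by 1.18 ± 0.20 in the hUMSC group. Mmp24, a neuronal membrane-type enzyme, fell by 0.38 ± 0.12 in the saline group and was a further 0.45 ± 0.11 lower in the hUMSC group. Mmp23 rose by 0.33 ± 0.08 in the saline group. Between the occluded groups 2 of 11 were lower, Mmp24 and Mmp16, and limma called none higher (7 in either direction at an unadjusted p under 0.05). In that comparison limma called 12.8% of all features.

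The related ADAM and ADAMTS proteases, which shed membrane proteins and cut proteoglycans, were tested for 16 of 31 genes. In the saline group 4 were higher and 2 lower with a median of 0.25, and in the hUMSC group 9 were higher and 4 lower with a median of 0.36. Of all features 14.3% were called higher and 27.3% in either direction in the saline group, and 24.7% and 62.0% in the hUMSC group. Adamts1, an aggrecanase that is also inhibited by Timp3, rose by 1.50 ± 0.30 in the saline group (SE, adjusted p = 0.00365) and by 2.22 ± 0.29 in the hUMSC group (adjusted p = 2.55e-05). Adamts7 rose by 1.38 ± 0.30 and 2.11 ± 0.29. Adam11, a neuronal member without protease activity, fell by 0.66 ± 0.18 and 1.15 ± 0.17. Against the saline group 2 were higher and 1 lower in the hUMSC group: Adam17 by 0.60 ± 0.17, Adamts4 by 0.49 ± 0.11 and Adam23 by -0.45 ± 0.09. That comparison called 4.86% of all features higher and 12.8% in either direction.

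A further list held genes that activate, dock or clear the enzymes. Beside its counts, 14.3% of all features were called higher in the saline group and 24.7% in the hUMSC group against control. In either direction these shares were 27.3% and 62.0%. In hUMSC against saline 4.86% were called higher. Of 23 tested of 30 listed, 15 were higher and none lower by limma in the saline group (16 in either direction at an unadjusted p under 0.05, median 0.68), and 17 were higher and 3 lower in the hUMSC group (median 1.14, or 1.11 with bounds). Plau, the urokinase that generates plasmin, an activator of metalloproteinase precursors, rose by 4.53 ± 0.62 (SE, adjusted p = 0.000392) and 5.70 ± 0.59 (adjusted p = 5.48e-06). It cleared background on 1 control array of 5. Lcn2, whose protein binds Mmp9 and shields it from breakdown, rose by 2.48 ± 0.86 (adjusted p = 0.0440) and 4.30 ± 0.82 (adjusted p = 0.000416). In the hUMSC group against saline 5 of 23 were higher, among them the urokinase receptor Plaur by 0.84 ± 0.27, the integrin Itgb1 by 0.54 ± 0.17 and the convertase Furin, which activates Mmp14, by 0.50 ± 0.14 (adjusted p = 0.0329).

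Substrates of the enzymes were higher for part of each list. Beside the counts, 14.3% of all features were called higher in the saline group and 24.7% in the hUMSC group against control. In either direction these shares were 27.3% and 62.0%. In hUMSC against saline 4.86% were called higher and 12.8% in either direction. Of 15 basement membrane and tight junction genes tested of 22 listed, 6 were higher and 1 lower in the saline group (median 0.28), and 10 were higher and 2 lower in the hUMSC group (median 0.59). Fibronectin (Fn1) rose by 1.57 ± 0.28 (SE, adjusted p = 0.00178) and 2.18 ± 0.26, and nidogen 2 (Nid2) by 0.77 ± 0.26 and 1.34 ± 0.25. Collagen IV (Col4a1) rose by 0.82 ± 0.29 and 1.97 ± 0.27, and was 1.14 ± 0.27 higher in the hUMSC than in the saline group (adjusted p = 0.0240). Col4a4 was 0.37 ± 0.10 higher in that last comparison and the claudin Cldn12 was at -0.36 ± 0.09, so that 2 of 15 were higher and 1 lower. Of 19 fibrillar and scar matrix genes tested of 22 listed, 10 were higher and 1 lower in the saline group (median 0.62), and 15 were higher and 2 lower in the hUMSC group (median 0.99). Osteopontin (Spp1), a substrate of several of the enzymes, rose by 5.10 ± 0.49 and 6.01 ± 0.47, periostin (Postn) by 2.18 ± 0.45 and 2.92 ± 0.43 and fibrillin (Fbn1) by 1.23 ± 0.29 and 1.94 ± 0.28. The only gene of this list called between the occluded groups was the proteoglycan Acan, at -0.37 ± 0.11. Without saline replicates 1 and 5 no gene of these 5 lists was called by limma between the occluded groups, where 23 of 20471 features were called in all. At an unadjusted p under 0.05 there were then 2 of the other metalloproteinases, 4 ADAM and ADAMTS genes, 2 activators and partners, 3 basement membrane genes and 0 scar matrix genes.

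The genes whose profiles lay nearest to a member were found over the 16 arrays as the root mean square difference of the log2 change from the control mean. For Mmp12 they were Gpnmb at 0.581, Spp1 at 0.643 and Fabp4 at 0.696, all of them abundant in lipid-laden macrophages. For Mmp9 they were Pkmyt1 at 0.268, Lyl1 at 0.279 and Cdc45 at 0.280. Cdca3 at 0.299, Apobec1 at 0.320 and Cdk1 at 0.324 came nearest to Timp1, and Cdca3 and Cdk1 are genes of cell division. Mmp2 was nearest to Hsd17b1 at 0.166, Aebp1 at 0.191 and Pdlim2 at 0.192. Mmp14 was nearest to Haus4 at 0.258, Cdk6 at 0.263 and Rab7b at 0.266. Timp3 was nearest to Pds5a at 0.102, Papola at 0.105 and Azin1 at 0.124, which were 0.27, 0.28 and 0.25 above control in the saline group and 0.03, 0.01 and 0.07 in the hUMSC group. A smaller change leaves less room for a difference, so these distances are not comparable between members.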

How the data were processed

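Total RNA of 16 rat brain samples was hybridised to 16 Agilent single-colour arrays, and their number limits the precision. The scanner files hold fluorescence intensity values, background-corrected by Feature Extraction 11.0.1.1 per the file headers, while the submitters' processing notes give 100.0.1.1. The deposited value table held intensity values whose array medians differed (207 to 277), and served as an alternative. How its values were derived from the spots was not checked. Outlier-flagged spots were dropped, spots of a probe averaged, and each array's 75th percentile subtracted in log2. Through their accessions 18355 of 30367 probes matched 15443 RefSeq symbols and 12012 matched none. After 9 probes without a usable spot on some array were dropped, features that cleared background (the scanner's flag) on 5 arrays or more were tested, with the brightest probe standing for its gene (20471 features, 12610 with a symbol).

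Group means were fitted in limma 3.58.1 (R 4.3.3, 13 residual degrees of freedom) over all features, with Benjamini-Hochberg adjustment and a threshold of 0.05. The steps were tested on simulated data. The R package data.table (version 1.17.8) and Python 3.11.15 with numpy 2.4.6 and pandas 2.3.3 read the files. All 10 genes are named. Of each other list up to 3 called genes per comparison are named, largest change first, if the group with more signal cleared background on all its arrays, and for 6 of the 10 genes the 3 nearest profiles. The synapsins were added after their values were seen. A gene that the rule named is not reported here. The 10 genes and all lists were chosen with earlier results of these data known. Alternatives changed the scaling, background correction (normexp, offset 50, on median spot signals), source values, filter, probe choice, slide, weights and the arrays included.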

Additional observations from a re-analysis of the deposited data

Results flagged for a closer look

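The Timp4 level of control replicate 2 was 0.55, and the nearest of the other control arrays was at 0.17. Its gap passed Dixon's limit for 5 samples. Of the 30 combinations of gene and group tested this was the only 1 past the limit, where chance gives about 1 in 20.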

How the results depend on the processing

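Of the 10 genes, the saline group had 7 called against the controls, 5 to 8 when 1 array was left out, 9 without saline replicates 1 and 5 or with array weights, and 0 on slide 2 alone (4 at an unadjusted p under 0.05). The hUMSC group had 9, or 8 to 9 with 1 array left out. Between the occluded groups the 2 calls became 0 with no filter on dim probes (5 at an unadjusted p under 0.05), on slide 1 (2) or slide 2 (3) alone, with array weights (3), without saline replicates 1 and 5 (2), without hUMSC replicates 5 and 6 (3) and with only the 2 groups fitted (4). They became 1 of 7 among features well above background on every array, 3 with slide as a block, and 0 to 3 with 1 array left out. The causes were not tested. Of the pair shifts, 2 were called, 0 on either slide alone, 1 without saline replicates 1 and 5, and 1 to 2 with 1 array left out.

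Direction reversed mostly between the occluded groups. Without saline replicates 1 and 5 the hUMSC minus saline difference was -0.077 for Mmp12, -0.032 for Mmp14, -0.071 for Timp2 and 0.079 for Timp4. The pair shifts were then 0.33 for Mmp9 minus Timp1 and 0.14 for Mmp2 minus Timp2, and -0.029 for Mmp2 minus Timp2 in saline against control. Timp4 between the occluded groups was 0.0035 with slide as a block, 0.093 on slide 1 and -0.12 to 0.019 with 1 array left out. Timp3 in the hUMSC group against control was -0.010 with median scaling, -0.011 with quantile normalization, -0.071 without hUMSC replicates 5 and 6, and -0.025 to 0.094 with 1 array left out. Mmp2 minus Timp2 between the occluded groups was 0.12 with normexp, 0.20 on slide 2 and -0.10 to 0.10 with 1 array left out. Mmp14 minus Timp2 in saline against control was -0.24 on slide 2 and -0.054 to 0.22 with 1 array left out, and Mmp9 minus Timp1 between the occluded groups -0.48 to 0.062.

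Counts over all features moved more. For hUMSC against saline 2624 were called, 6390 with slide as a block, 1363 with no filter, 1039 on slide 1, 0 on slide 2, 122 with array weights, 23 without saline replicates 1 and 5, 141 without hUMSC replicates 5 and 6, 41 with only the 2 groups and 183 to 4260 with 1 array left out. For saline against control 5581 were called, 3052 on slide 1, 1 on slide 2, 9247 with array weights, 9041 without saline replicates 1 and 5, and 3218 to 7604 with 1 array left out. For hUMSC against control 12700 were called, and 6184 on slide 2. Of the calls, 52.4% were higher in saline against control and 37.9% in hUMSC against saline, against 32.7% and 50.8% with median scaling.

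A replicate block over control and saline arrays called 6 of the 10 genes and 3209 features in saline against control, with Mmp19 at an adjusted p of 0.0677. Same-numbered control and saline arrays deviated together with r of -0.05, 0.18, 0.01, 0.11 and 0.17, so the numbers were not taken to pair the samples, and hUMSC shares only number 5 with them. Probes not well above background, as for Mmp3 and Mmp12 in the controls, allow only bounds, which hold for the scanner's background correction alone.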
